A study of Drosophila melanogaster with 14 samples.

Results

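The genes described here are the larval serum protein genes Lsp1alpha, Lsp1beta, Lsp1gamma and Lsp2 and the fat body protein genes Fbp1 and Fbp2 of Drosophila melanogaster. They were chosen by their symbols, which matched 6 of 17869 genes in the deposited table, and all 6 passed the filter on low values. RNA of whole larvae was sequenced as polyadenylated bulk RNA from 14 samples of 4 genotypes. The double mutant carries Sep2[2] and Sep5[2] together (homozygous, per the design text, 4 libraries), the Sep2 mutant carries Sep2[2] (3 libraries), the Sep5 mutant carries Sep5[2] (3 libraries) and the control is w1118 (4 libraries). Both alleles lie in genes of septins, cytoskeletal proteins that assemble into filaments, and the title of the series names the neuromuscular junction as its subject. The flies were reared at 25 °C. Age within the last larval stage, sex, the number of larvae per sample and whether the lines share a genetic background are not stated by the labels.

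Larval serum proteins are hexamerins, large storage proteins of the hemocyanin superfamily. The larval fat body, the insect's counterpart of liver and adipose tissue, secretes them into the hemolymph during the feeding period. Near the end of larval life the fat body takes them up again and stores them in granules, and they then serve as a source of amino acids while adult tissues are built. Lsp1alpha, Lsp1beta and Lsp1gamma encode related subunits of larval serum protein 1, and Lsp2 encodes larval serum protein 2. Fbp1 encodes the receptor through which the fat body takes up larval serum protein 1, and its transcription in the fat body is induced by the steroid hormone ecdysone. Fbp2 encodes a fat body protein related to alcohol dehydrogenases. The label storage proteins thus covers the larval serum proteins, whereas Fbp1 is an uptake receptor. Whether Fbp2 serves as a storage protein was not tested here.

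The libraries held 8858393 reads (double mutant replicate 3) to 47203028 reads (Sep5 mutant replicate 2). Septin5 had 34 reads in the double mutant, 466 in the Sep2 mutant, 2 in the Sep5 mutant and 656 in the control, each summed over the libraries of a genotype. Septin2 reached between 0.270 and 9.11 CPM (read count relative to library size, scaled between libraries) in the double mutant, between 21.7 and 29.4 CPM in the Sep2 mutant, between 47.8 and 78.5 CPM in the Sep5 mutant and between 46.6 and 67.2 CPM in the control. Septin2 was at 0.726, 0.270 and 0.669 CPM in double mutant replicates 1, 2 and 3, so the libraries labelled as the Sep2 mutant, which carry the same named allele, held more of this RNA than those 3. The labels call the double mutant homozygous and do not say so of the Sep2 mutant, and comparisons with the Sep2 mutant, the interaction included, are between libraries as labelled. Double mutant replicate 4 held 160 of the 193 Septin2 reads of the double mutant. For the double mutant against the control, values without it are given where a call or a direction among the 6 genes changed. Mitochondrial large ribosomal RNA took between 10.6% and 24.9% of reads in the double mutant, between 5.74% and 7.25% in the Sep2 mutant, between 6.70% and 11.8% in the Sep5 mutant and between 4.74% and 9.83% in the control. The sample labels name larvae while the extraction text names adult flies. A list of 9 adult genes summed to 2.71 to 5.90 CPM over all libraries, against 1509 to 21579 CPM for 11 genes of larval salivary glue. The fat body was present by its markers in every library, with a sum over 20 genes between 4326 and 7306 CPM in the double mutant, between 3240 and 4598 CPM in the Sep2 mutant, between 2914 and 5945 CPM in the Sep5 mutant and between 2307 and 3087 CPM in the control. Of that list Pepck1 had no read in any library, and Adh did not pass the filter on low values.

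The pattern over genotypes split the genes in 3 ways. In the double mutant against the control the Lsp1 transcripts rose 2.13-fold to 2.47-fold, Fbp1 fell to 0.247 of the control level, and Lsp2 and Fbp2 did not pass the test. Against the control, limma called 4 of the 6 genes in the double mutant (3 higher, 1 lower) at an adjusted p under 0.05, where 45.0% of the 12586 tested genes were called, 22.5% higher and 22.5% lower. Read against that background, the count of 4 is not a result particular to these genes, and their values and order are what follows. The median log2 fold change of the 6 genes was 0.66 in the double mutant against the control, against -0.01 over all tested genes. It was close to that in the Sep2 mutant (0.64) and the Sep5 mutant (0.66) against the control. Close medians do not mean that the genes moved alike, and these comparisons share the control libraries. Fbp1, for example, had -2.02 in the double mutant, 0.60 in the Sep2 mutant and -0.68 in the Sep5 mutant. RNA was taken from whole animals, so a change in the number of fat body cells and a change in RNA per cell cannot be told apart.

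**Figure D1:**
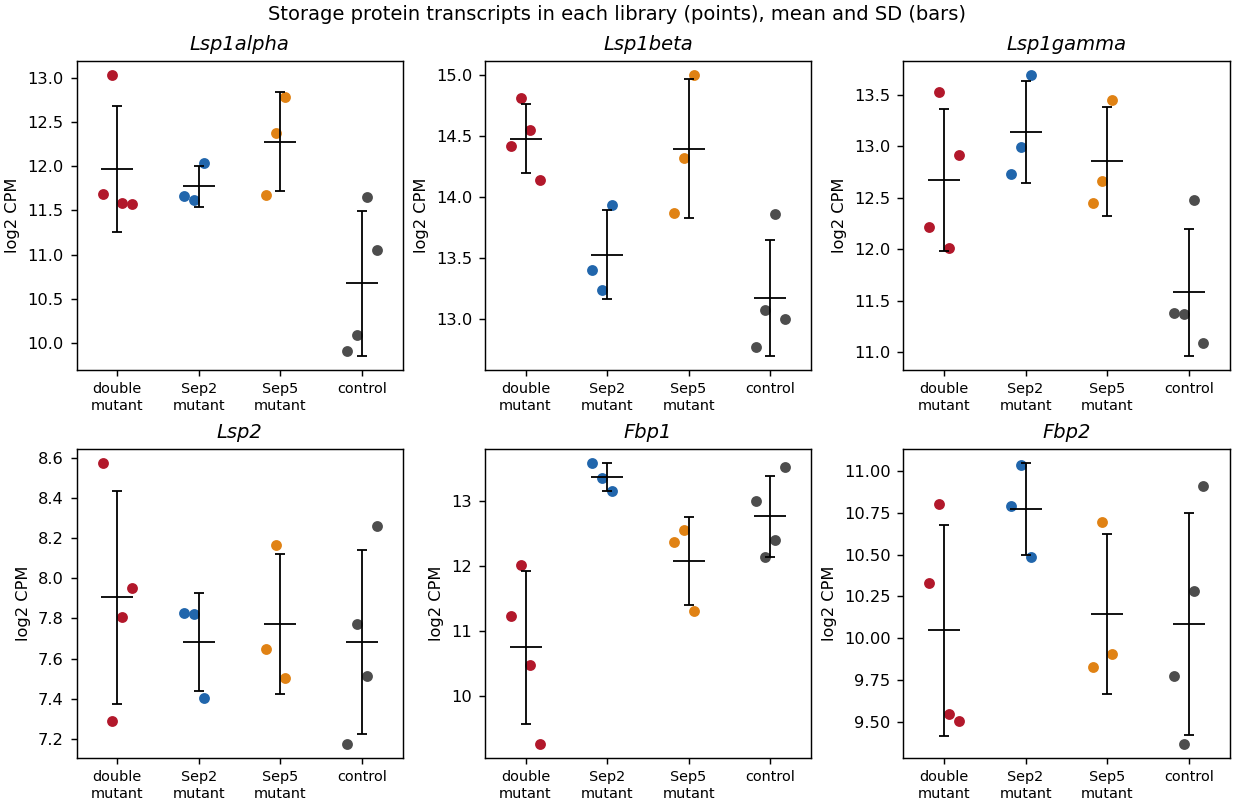
Level of each transcript (log2 CPM, y axis) in each of the 14 libraries (points), by genotype (x axis), with the mean and SD as bars. The y axes differ between panels and do not start at 0. Every double mutant library lies above every control library for Lsp1beta and below every control library for Fbp1, while the genotypes overlap for Lsp2 and for Fbp2.

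Lsp1beta, on chromosome arm 2L from 898500 to 901316 on the plus strand (BDGP6, Ensembl release 115), encodes the subunit with the highest RNA level of the family. Its level was 14.41, 14.81, 14.55 and 14.14 log2 CPM in the double mutant, 13.40, 13.24 and 13.94 in the Sep2 mutant, 13.87, 14.32 and 15.00 in the Sep5 mutant, and 12.77, 13.07, 13.86 and 13.00 in the control. All 4 double mutant libraries and all 3 Sep5 mutant libraries lay above all 4 control libraries, as was so (in either direction) for 39.9% of tested genes in the double mutant and 15.2% in the Sep5 mutant. The Sep2 mutant overlapped the control. Lsp1beta rose in the double mutant against the control by 1.30 on the log2 scale (SE 0.31, limma adjusted p = 0.00404), or 2.47-fold. Its adjusted p over 25 alternative settings ran from 0.00138 to 0.454, and the call was lost in 1 of them, quantile normalization (0.27, adjusted p = 0.454), which gives the highest ranks of each library the same values. Among nuclear protein-coding genes Lsp1beta ranked 1 or 2 in the double mutant, 1 or 2 in the Sep2 mutant, 1 in every Sep5 mutant library and between 1 and 4 in the control.

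For the Sep5 mutant against the control, Lsp1beta had a log2 fold change of 1.22 (SE 0.33, limma adjusted p = 0.0498), or 2.33-fold, just past the threshold. This was the single gene called of the 6, where 5.13% of tested genes were called and 3.89% were called higher, and the call held in 6 of 25 alternatives, with adjusted p from 0.0156 to 0.449. In the Sep2 mutant against the control the log2 fold change was 0.35 (SE 0.33, adjusted p = 0.551, 95% interval -0.36 to 1.07). In the double mutant against the Sep2 mutant, Lsp1beta rose by 0.95 on the log2 scale (SE 0.33, limma adjusted p = 0.0459), with no overlap of the libraries, as for 37.5% of tested genes. That call held in 14 of 25 alternatives, with adjusted p from 0.00184 to 0.564. The genotypes ordered for Lsp1beta as double mutant, Sep5 mutant, Sep2 mutant and control, at means of 14.48 ± 0.28, 14.39 ± 0.57, 13.53 ± 0.36 and 13.17 ± 0.47 log2 CPM (SD, n = 4, 3, 3 and 4). Neighbours in that order were not called in any pairwise test, at 0.08 for the double mutant against the Sep5 mutant and -0.87 for the Sep2 mutant against the Sep5 mutant (limma adjusted p = 0.899 and 0.275).

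Lsp1alpha, on the X chromosome from 12490291 to 12492982 on the plus strand, had the lowest level of the Lsp1 subunits. It reached 11.68, 13.03, 11.59 and 11.57 log2 CPM in the double mutant, 11.66, 11.62 and 12.04 in the Sep2 mutant, 11.68, 12.38 and 12.78 in the Sep5 mutant, and 9.92, 10.10, 11.65 and 11.05 in the control. Double mutant replicate 2 stood far above the other libraries of its genotype, and control replicate 3 lay within the range of the double mutant. Lsp1alpha rose in the double mutant against the control by 1.29 (log2, SE 0.41, limma adjusted p = 0.0211). The call held in 19 of 25 alternatives with adjusted p from 0.00633 to 0.118. It was lost with quantile normalization (0.74, adjusted p = 0.118), with sample weights (0.85, adjusted p = 0.0708) and with no filter on low values (adjusted p = 0.0504). It was also lost without double mutant replicate 2 (0.93, adjusted p = 0.0704), without control replicate 1 (1.03, adjusted p = 0.0703) and without control replicate 2 (1.09, adjusted p = 0.0671).

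In the single mutants Lsp1alpha had log2 fold changes of the same sign that did not pass the threshold. Its value was 1.09 for the Sep2 mutant against the control (SE 0.45, limma adjusted p = 0.178) and 1.60 for the Sep5 mutant against the control (SE 0.45, adjusted p = 0.0536). The Sep5 mutant libraries did not overlap the control libraries, as for 15.2% of tested genes. Genotype means ran from 12.28 ± 0.56 log2 CPM in the Sep5 mutant (SD, n = 3) through 11.97 ± 0.71 in the double mutant (n = 4) and 11.77 ± 0.23 in the Sep2 mutant (n = 3) down to 10.68 ± 0.82 in the control (n = 4), and no pair of mutants was called apart.

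Lsp1gamma, on chromosome arm 3L from 66430 to 68995 on the plus strand, differed from the other subunits in that the Sep2 mutant had its highest mean. It had 12.22, 13.52, 12.02 and 12.92 log2 CPM in the double mutant, 12.73, 12.99 and 13.69 in the Sep2 mutant, 12.45, 12.66 and 13.45 in the Sep5 mutant, and 11.38, 11.37, 12.48 and 11.09 in the control. All Sep2 mutant libraries lay above all control libraries, as was so (in either direction) for 20.9% of tested genes, while control replicate 3 overlapped both the double mutant and the Sep5 mutant. Lsp1gamma rose in the double mutant against the control by 1.09 (log2, SE 0.39, limma adjusted p = 0.0346). The call held in 16 of 25 alternatives, with adjusted p from 0.0104 to 0.323. The value was smallest with quantile normalization (0.45, adjusted p = 0.306) and with sample weights (0.44, adjusted p = 0.323), and the call was also lost with no filter (adjusted p = 0.0684) and with double mutant replicates 1 and 2 alone (adjusted p = 0.0548). Leaving out 1 library ended it for double mutant replicate 2 (adjusted p = 0.112), double mutant replicate 4 (1.01, adjusted p = 0.0757) and control replicates 1, 2 and 4 (adjusted p = 0.0772, 0.0804 and 0.0926).

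The Sep2 mutant exceeded the control for Lsp1gamma by 1.56 (log2, SE 0.42), at a limma adjusted p of 0.0508, just short of the threshold. Over 25 alternatives that adjusted p ran from 0.0188 to 0.203, and it passed in 6, among them without control replicate 3 (0.0188), without double mutant replicate 2 (0.0355) and without Sep5 mutant replicate 3 (0.0499). The Sep5 mutant had a value of 1.27 against the control (SE 0.42, adjusted p = 0.0981). Of the 6 genes, 0 were called by limma in the Sep2 mutant against the control, where 4.50% of tested genes were called; 2 had an unadjusted p under 0.05 and 0 were called by voom on the recovered reads. The means for Lsp1gamma were 13.14 ± 0.50 log2 CPM in the Sep2 mutant, 12.85 ± 0.53 in the Sep5 mutant, 12.67 ± 0.69 in the double mutant and 11.58 ± 0.61 in the control (SD, n = 3, 3, 4 and 4). The mutants were not called apart for this subunit, at -0.47 for the double mutant against the Sep2 mutant (95% interval -1.37 to 0.44, adjusted p = 0.405) and -0.18 for the double mutant against the Sep5 mutant (95% interval -1.09 to 0.72, adjusted p = 0.813).

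**Figure D2:**
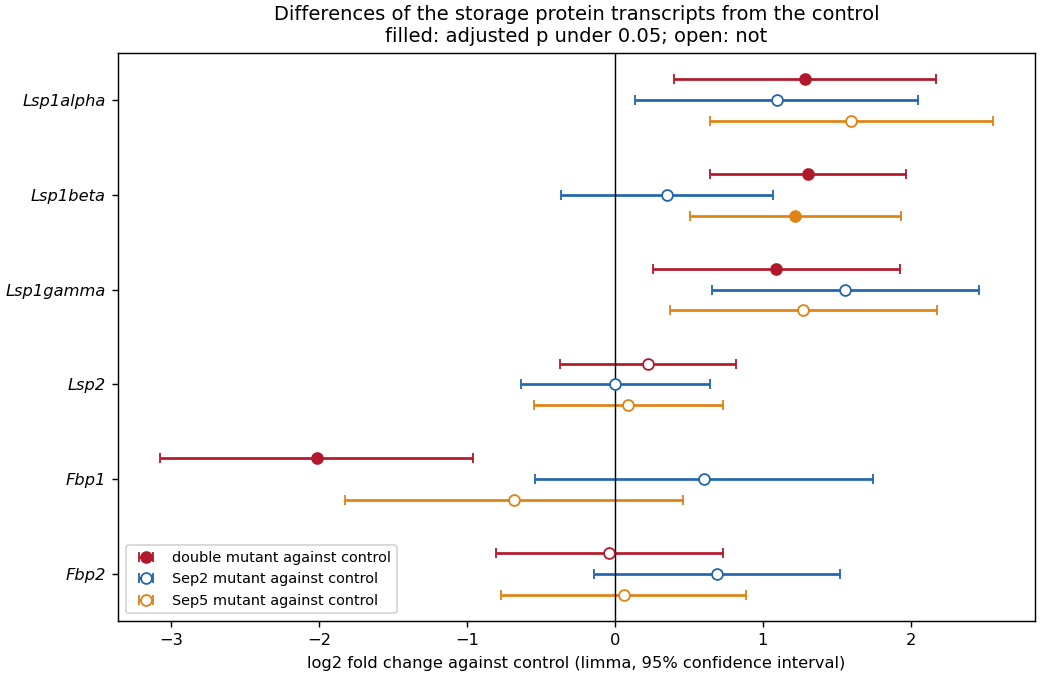
Log2 fold change against the control (x axis) with its 95% confidence interval from limma for each transcript (rows) in the double mutant, the Sep2 mutant and the Sep5 mutant. The 3 comparisons share the control libraries. Filled points have an adjusted p under 0.05, which holds for Lsp1alpha, Lsp1beta, Lsp1gamma and Fbp1 in the double mutant and for Lsp1beta in the Sep5 mutant.

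Lsp2, on 3L from 12129393 to 12131869 on the plus strand, was far below the Lsp1 subunits and nearly level over the genotypes. It had 8.57, 7.29, 7.81 and 7.95 log2 CPM in the double mutant, 7.83, 7.82 and 7.40 in the Sep2 mutant, 7.65, 8.16 and 7.50 in the Sep5 mutant, and 7.18, 7.77, 7.52 and 8.26 in the control. The ranges of all genotypes overlapped. Its log2 fold change was 0.22 for the double mutant against the control (SE 0.28, 95% interval -0.37 to 0.82, limma adjusted p = 0.541), 0.00 for the Sep2 mutant against the control (95% interval -0.64 to 0.64) and 0.09 for the Sep5 mutant against the control (95% interval -0.55 to 0.73). Per kilobase of exon, Lsp2 averaged 102 ± 37.9 CPM in the double mutant, 83.8 ± 13.4 in the Sep2 mutant, 90.0 ± 22.6 in the Sep5 mutant and 86.1 ± 27.9 in the control, against 8414 ± 1627, 4388 ± 1158, 8256 ± 3309 and 3512 ± 1282 CPM per kilobase for Lsp1beta in those genotypes (SD, n = 4, 3, 3 and 4). Among nuclear protein-coding genes Lsp2 ranked between 325 and 1073 in the double mutant and between 412 and 1065 in the control.

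Fbp1, the receptor gene, on 3L from 14094589 to 14098053 on the minus strand, moved in the double mutant in the opposite direction to the subunits it takes up. It had 11.23, 12.01, 10.47 and 9.26 log2 CPM in the double mutant, 13.58, 13.36 and 13.15 in the Sep2 mutant, 12.37, 12.56 and 11.31 in the Sep5 mutant, and 12.99, 12.13, 12.40 and 13.52 in the control. Every double mutant library lay below every control library and below every Sep2 mutant library, where 39.9% and 37.5% of tested genes did not overlap in those comparisons, while the Sep5 mutant overlapped both the double mutant and the control. Fbp1 fell in the double mutant against the control, at a log2 fold change of -2.02 (SE 0.49, limma adjusted p = 0.00479), or to 0.247 of the control level. The call held in 24 of 25 alternatives with adjusted p from 0.000552 to 0.0637. It was lost with double mutant replicates 1 and 2 as the only libraries of that genotype (-1.14, adjusted p = 0.0637), and without double mutant replicate 4 the value was -1.53 (adjusted p = 0.0120). In mean level, Fbp1 had 2142 ± 1516 CPM in the double mutant, 10611 ± 1577 in the Sep2 mutant, 4617 ± 1839 in the Sep5 mutant and 7454 ± 3261 in the control (SD, n = 4, 3, 3 and 4).

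Between the mutants, Fbp1 fell in the double mutant against the Sep2 mutant, at a log2 fold change of -2.62 (SE 0.53, limma adjusted p = 0.00305), to 0.163 of the Sep2 mutant level. The call held in all 25 alternatives run, with adjusted p from 7.02e-06 to 0.0287. Of the 6 genes, 2 were called in this comparison (Lsp1beta higher and Fbp1 lower), where 28.9% of tested genes were called, 16.0% higher and 12.9% lower. In the double mutant against the Sep5 mutant the value was -1.33 (SE 0.53, adjusted p = 0.130), which passed the threshold in 1 alternative, without double mutant replicate 2 (-1.76, adjusted p = 0.0499). Over the 25 alternatives this value ran from -1.76 to -0.46. Of the 6 genes, 0 were called by limma in the double mutant against the Sep5 mutant, where 8.91% of tested genes were called; 1 had an unadjusted p under 0.05 and voom called 0. In the Sep2 mutant against the Sep5 mutant the value was 1.28 (SE 0.57, adjusted p = 0.319), and the libraries did not overlap, which was so for 20.0% of tested genes. Limma called 0 of the 6 genes in the Sep2 mutant against the Sep5 mutant, where 2.43% of tested genes were called; 2 had an unadjusted p under 0.05 and voom called 0.

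For the single mutants against the control, the log2 fold change of Fbp1 was 0.60 in the Sep2 mutant (SE 0.53, limma adjusted p = 0.524), against -0.68 for the Sep5 mutant (SE 0.53, adjusted p = 0.501). Its means were 10.74 ± 1.17 log2 CPM in the double mutant, 13.36 ± 0.21 in the Sep2 mutant, 12.08 ± 0.67 in the Sep5 mutant and 12.76 ± 0.62 in the control (SD, n = 4, 3, 3 and 4). The control thus stood between the Sep2 mutant above it and the Sep5 mutant below it, and no neighbours in that order were called apart. Its rank among nuclear protein-coding genes lay between 18 and 252 in the double mutant, between 1 and 5 in the Sep2 mutant, between 6 and 27 in the Sep5 mutant and between 1 and 6 in the control.

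Fbp2, on 2L from 9426784 to 9427917 on the plus strand, did not follow Fbp1. It had 10.33, 10.80, 9.54 and 9.51 log2 CPM in the double mutant, 10.79, 11.04 and 10.49 in the Sep2 mutant, 9.83, 10.70 and 9.90 in the Sep5 mutant, and 9.78, 9.37, 10.28 and 10.91 in the control. All genotypes overlapped. The log2 fold change was -0.04 in the double mutant against the control (SE 0.36, 95% interval -0.81 to 0.73, limma adjusted p = 0.941), 0.69 in the Sep2 mutant against the control (SE 0.39, adjusted p = 0.319) and 0.06 for the Sep5 mutant against the control (SE 0.39, adjusted p = 0.950). Without double mutant replicate 4 the value against the control was 0.14 (adjusted p = 0.790). In the double mutant against the Sep2 mutant it was -0.73 (SE 0.39, adjusted p = 0.165), and it was called there with sample weights (-0.81, adjusted p = 0.0164). In the double mutant against the Sep5 mutant it was -0.10 (adjusted p = 0.898), or 0.083 without double mutant replicate 4. The annotation places CG42847 on the same strand over part of Fbp2, with 6676 reads against 470695 for Fbp2 over the 14 libraries, and an antisense RNA (asRNA:CR11538, 29 reads) over Lsp2.

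The non-additive part of the double mutant (double mutant minus Sep2 mutant minus Sep5 mutant plus control) was called by limma for 0 of the 6 genes, where 4.47% of tested genes were called; 3 had an unadjusted p under 0.05 and voom called 0. The log2 values were -1.40 for Lsp1alpha (SE 0.63, 95% interval -2.76 to -0.05, adjusted p = 0.225), -1.74 for Lsp1gamma (SE 0.60, 95% interval -3.02 to -0.46, adjusted p = 0.111) and -1.93 for Fbp1 (SE 0.76, 95% interval -3.55 to -0.32, adjusted p = 0.164). Those were the 3 genes with an unadjusted p under 0.05, and none of them passed the threshold once adjusted. The Fbp1 value ran from -2.36 to -1.06 over 24 alternatives. For Lsp1beta the value was -0.27 (95% interval -1.28 to 0.74), and for Lsp2 it was 0.13 (95% interval -0.78 to 1.04).

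The 6 transcripts together took 3.15% ± 0.96 of the reads in the double mutant, 4.09% ± 0.35 in the Sep2 mutant, 4.21% ± 1.41 in the Sep5 mutant and 2.67% ± 0.55 in the control (SD, n = 4, 3, 3 and 4). Without mitochondrial transcripts and ribosomal RNA the shares were 4.05%, 4.60%, 4.81% and 3.04% in those genotypes. The highest library was Sep5 mutant replicate 3 at 5.53%, and the lowest was control replicate 2 at 2.07%. Lsp1beta alone took 1.91% ± 0.39 in the double mutant and 1.09% ± 0.36 in the control, and Fbp1 took 0.176% ± 0.125 in the double mutant and 0.844% ± 0.350 in the control.

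**Figure D3:**
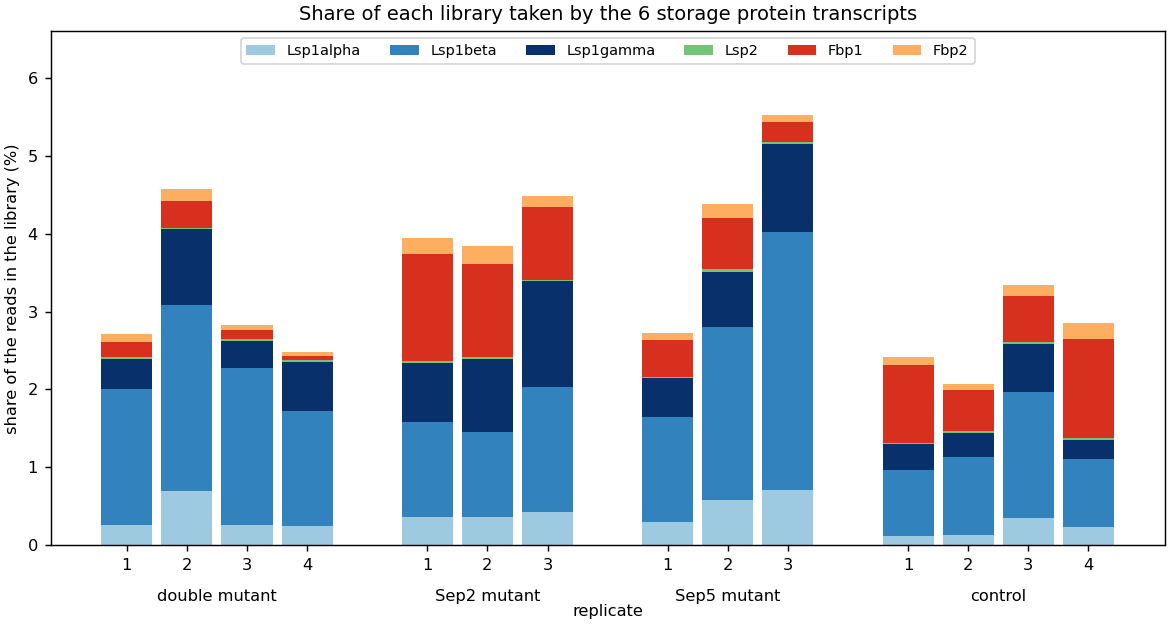
Share of all reads of a library (y axis, percent) taken by each of the 6 transcripts (stacked colours), for each replicate of each genotype (x axis). Fbp1 is a thin band in the double mutant (0.176% on average) and a broad one in the control (0.844%), while Lsp1beta is the largest part of every bar of the double mutant and the Sep5 mutant.

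Within a library, Fbp1 and Lsp1beta are compared on the same scale, so the scaling between libraries cancels. Fbp1 minus Lsp1beta was -3.19, -2.80, -4.08 and -4.87 log2 CPM in the double mutant, 0.18, 0.12 and -0.79 in the Sep2 mutant, -1.50, -1.76 and -3.69 in the Sep5 mutant, and 0.23, -0.94, -1.45 and 0.52 in the control. In the double mutant every library lay below every control library. That separation follows from the single genes, since Fbp1 lay below and Lsp1beta above every control library. The Sep5 mutant did so by a small margin, with its highest library at -1.50 and the lowest control library at -1.45. In the Sep2 mutant the libraries lay within the control range. Relative to Fbp2, Fbp1 stood at 0.70 ± 0.64 log2 CPM in the double mutant, 2.59 ± 0.24 in the Sep2 mutant, 1.94 ± 0.57 in the Sep5 mutant and 2.68 ± 0.45 in the control (SD, n = 4, 3, 3 and 4). These differences are a description with no test, and no share over other gene pairs was computed.

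The make-up of the Lsp1 pool set the Sep2 mutant apart. Counted per exon length, Lsp1beta made up 66.2% of Lsp1 transcripts in the double mutant (between 57.0% and 75.5%), 46.5% in the Sep2 mutant (between 44.1% and 50.0%), 61.7% in the Sep5 mutant (between 61.0% and 62.5%) and 64.1% in the control (between 60.6% and 68.0%). Lsp1gamma made up 21.5% in the double mutant (between 14.4% and 28.7%), 39.1% in the Sep2 mutant (between 34.4% and 42.0%), 23.3% in the Sep5 mutant (between 21.5% and 25.0%) and 23.5% in the control (between 18.7% and 26.9%). Every Sep2 mutant library had a larger Lsp1gamma share and a smaller Lsp1beta share than any of the 11 other libraries. Lsp1alpha stayed between 9.06% and 17.4% of the pool in every library. The shares are a description with no test, and no share over other gene sets was computed. They are parts of the same total, so a larger Lsp1gamma share and a smaller Lsp1beta share are not separate observations. In the Sep2 mutant against the control, limma called neither Lsp1beta (adjusted p = 0.551) nor Lsp1gamma (adjusted p = 0.0508). The subunit genes are related, and reads shared between them could have been split by the authors' counting, whose part in these shares was not tested.

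**Figure D4:**
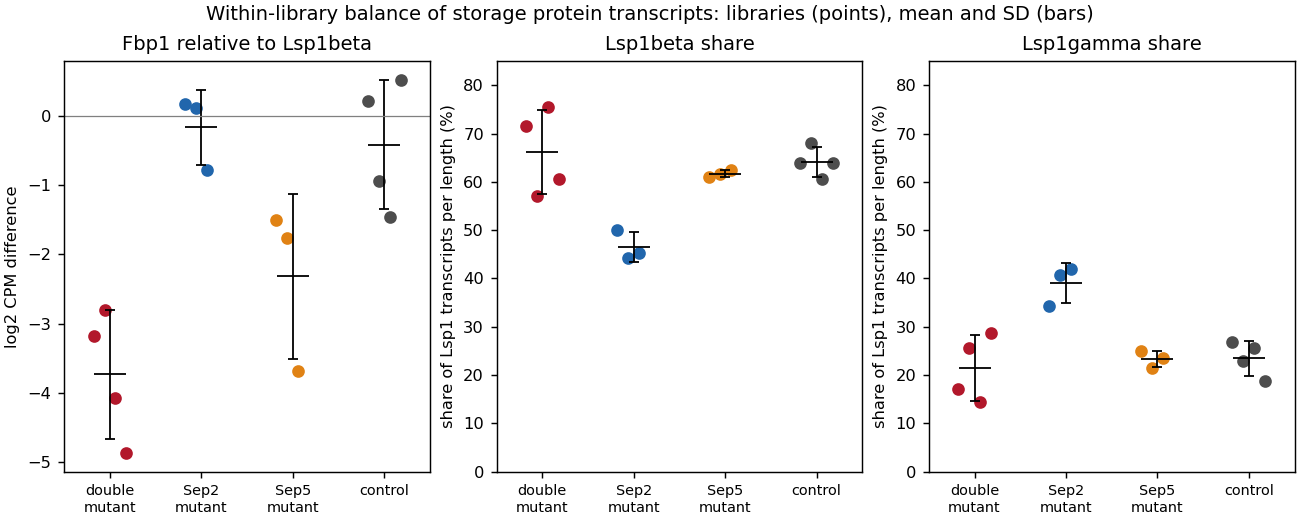
Fbp1 minus Lsp1beta within each library (left, log2 CPM) and the shares of Lsp1beta (middle) and Lsp1gamma (right) in all Lsp1 transcripts per exon length (percent), by genotype, with libraries as points and the mean and SD as bars. The Sep2 mutant has Lsp1gamma shares of 34.4% to 42.0%, above all other libraries, and the double mutant has Fbp1 furthest below Lsp1beta, at -4.87 to -2.80.

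The genes with the pattern most like each of the 6 over the 14 libraries were found by the root mean square difference of log2 CPM after centring each gene, among 10008 genes whose mean was 2 log2 CPM or more. Lsp1alpha lay nearest to CG14500 (0.359), CG7320 (0.448) and FBgn0031821 (0.482), with Lsp1beta and Lsp1gamma at ranks 3 and 4 among all genes, against a median distance of 0.896. For Lsp1beta the nearest were Alg3 (0.284), Tsp42Eq (0.290) and Dhrs4 (0.293), and for Lsp1gamma they were CG7763 (0.325), Cyp4s3 (0.349) and Idgf5 (0.366). The subunits were less close seen from these genes. From Lsp1beta, Lsp1alpha was at rank 379 and Lsp1gamma at rank 2480. From Lsp1gamma, Lsp1alpha was at rank 20 and Lsp1beta at rank 459. Tsp42Eq is a tetraspanin, Cyp4s3 a cytochrome P450 and Idgf5 a chitinase-like secreted protein. Fbp1 lay nearest to GILT2 (0.432), Tsp42Ep (0.467) and CG11089 (0.471), and Fbp2 was at rank 557 from it. Fbp2 lay nearest to Obp99b (0.277), an odorant-binding protein family member, and then to spt4 (0.319) and CG34166 (0.328). For Lsp2 the nearest were CG13197, Eaf6 and CG31957 (0.207 each), where the median distance was 0.554.

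Genes of the tissue that makes these proteins were mostly higher in the double mutant against the control. Of 18 tested fat body markers 10 rose and 3 fell, with a median log2 fold change of 1.0 against -0.01 over all tested genes. Over all tested genes 22.5% were called higher and 22.5% lower, and the share of fat body markers that fell was under that background. Among those that rose were the iron carrier transferrin Tsf1 at 1.99 (SE 0.25, limma adjusted p = 5.54e-05), the adipokinetic hormone receptor AkhR at 1.67, the fatty acid transporter Fatp1 at 1.37 and the fatty acid desaturase Desat1 at 1.54. The 3 that fell, named after their values were seen, were the lipocalin NLaz at -1.66, the glucosidase tobi at -1.51 and the insulin-like peptide Ilp6 at -0.71. In the Sep2 mutant against the control 0 rose and 1 fell (tobi, -1.72, limma adjusted p = 0.0459), and in the Sep5 mutant against the control limma called 0 of 18. The part of fat body content in these differences was not tested.

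Of 16 other hemolymph proteins, some of which are also fat body markers, 6 rose and 3 fell in the double mutant against the control. Over all tested genes 22.5% were called higher and 22.5% lower, so the share that fell was no larger than the background. Besides Tsf1 they included the chitinase-like growth factors Idgf6 (1.78), Idgf2 (1.37) and Idgf4 (1.16). Idgf6 was also higher in the Sep5 mutant against the control (1.13, SE 0.29, limma adjusted p = 0.0367). The prophenoloxidases, enzymes of melanization that share the hemocyanin superfamily with the larval serum proteins, had log2 fold changes of 0.76 for PPO3 (SE 0.29, adjusted p = 0.0434), 0.65 for PPO1 (adjusted p = 0.280) and 0.61 for PPO2 (adjusted p = 0.392) in the double mutant against the control. The count of called members of that list was between 0 and 1 over the alternatives.

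Genes of the ecdysone response were mostly lower in the double mutant against the control. Of 20 tested, 13 fell and 3 rose, where 22.5% of all tested genes fell and 22.5% rose, with a median log2 fold change of -1.03. The transcription factor gene br (broad) fell, at -2.54 (SE 0.26, limma adjusted p = 1.30e-05), the nuclear receptor Eip75B at -1.64 (SE 0.26), and the ecdysone-inducible genes ImpE1 and ImpE2 at -3.53 (SE 0.45) and -5.28 (SE 0.70). The 3 that rose are not among these named genes. Summed levels of the list lay between 1427 and 1819 CPM in the double mutant, between 3394 and 4860 CPM in the Sep2 mutant, between 2271 and 4208 CPM in the Sep5 mutant and between 3646 and 6264 CPM in the control. In this sum, which the genes with the highest levels weigh on most, the double mutant lay below every library of the other genotypes. No share over other gene sets was computed for it. Of single tested genes, 39.9% did not overlap between the double mutant and the control. Of the 20, 1 was called in the Sep2 mutant against the control (Eip55E, higher, 0.77), and in the Sep5 mutant against the control limma called 0 of 20. Of 9 tested genes of ecdysteroid synthesis and transport, 3 rose in the double mutant against the control (shd 0.86, nvd 1.12 and Npc1a 0.63) and 0 fell. The part of the ecdysone response in the difference of Fbp1 was not tested.

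Salivary glue and new glue genes, which the salivary glands express in the last larval stage, differed widely among libraries of the double mutant, the Sep5 mutant and the control, and little among those of the Sep2 mutant. The 11 glue and new glue genes summed to 2963, 6998, 1509 and 1584 CPM in the double mutant, 18312, 21579 and 20074 CPM in the Sep2 mutant, 14540, 3832 and 6234 CPM in the Sep5 mutant, and 6801, 5991, 4633 and 18825 CPM in the control. Control replicate 4 was highest of the control libraries for these genes and also for Fbp1, Fbp2 and Lsp2, but lowest of them for Lsp1gamma. Double mutant replicate 2 was highest of its genotype for these genes and for Fbp1, Fbp2 and the Lsp1 subunits, but lowest for Lsp2. Sep5 mutant replicate 1 was highest of its genotype for the glue genes and lowest for the Lsp1 subunits and Fbp2. Of the 10 tested, 6 fell and 3 rose in the double mutant against the control, again beside 22.5% of all tested genes in each direction. The genes that rose were ng2 (5.58, SE 0.65, limma adjusted p = 4.00e-05), ng1 (4.21) and ng3 (2.87), and Sgs5bis (-3.34) had the smallest adjusted p of those that fell. With double mutant replicates 1 and 2 as the only libraries of that genotype, 0 of the 10 were called lower. Of the prepupal Eig71E genes, 2 of 6 tested fell, Eig71Eg (-3.60) and Eig71Ea (-3.61), and with those replicates alone 0 fell. The part of developmental stage in the differences of Fbp1 and of the Lsp1 subunits was not tested, and stage within the instar cannot be told apart from genotype here.

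Regulators of fat body transcription and amino acid sensing had calls in both directions in the double mutant against the control. Of 10 tested regulators 4 rose and 2 fell, beside 22.5% higher and 22.5% lower over all tested genes. The C/EBP factor slbo fell, at -6.50 (SE 1.08, limma adjusted p = 0.000510), while the sugar-response factor sug (2.2), the nuclear receptor Hnf4 (0.84) and the glucose sensor Mondo (0.85) rose. For the Sep2 mutant against the control 1 was called, the GATA factor srp (-0.64, adjusted p = 0.0450). Of 16 tested genes of amino acid sensing and TOR signalling 3 rose and 2 fell in the double mutant, a smaller share than the 45.0% called over all tested genes, among them the amino acid transporters mnd (-1.45) and slif (-0.61), the GTPase Rheb (0.70) and the insulin receptor substrate chico (0.66).

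**Figure D5:**
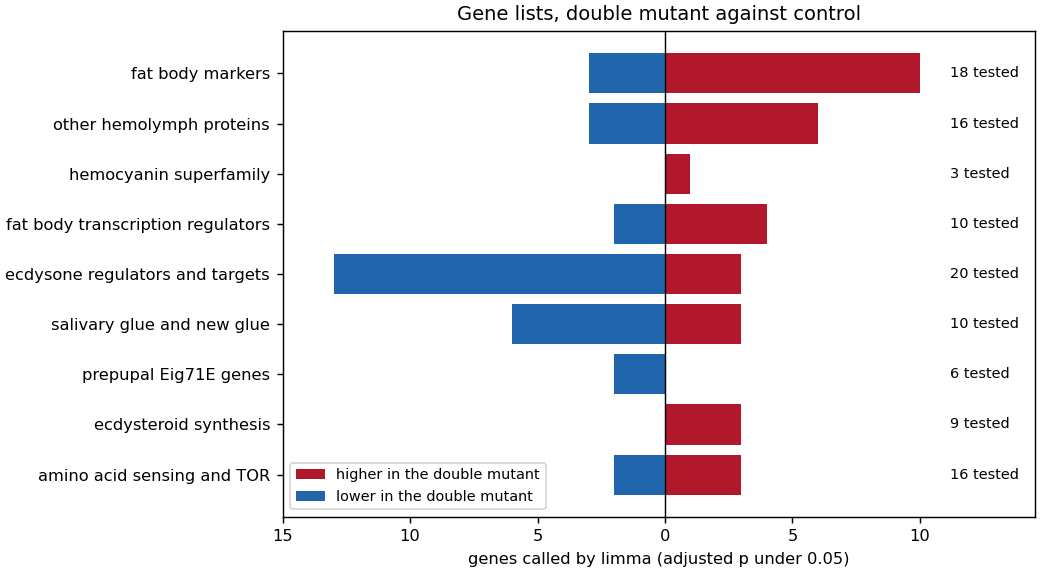
Number of genes called by limma (x axis, genes with an adjusted p under 0.05, higher to the right and lower to the left of 0) in the double mutant against the control for 9 gene lists (rows), with the number tested at the right. Fat body markers are mostly higher (10 of 18) and ecdysone regulators and targets mostly lower (13 of 20).

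Markers of other tissues differed in how many moved, and the counts stand beside 22.5% of all tested genes called higher and 22.5% called lower. All 10 larval muscle markers rose in the double mutant against the control, with a median log2 fold change of 1.93, with a sum between 30458 and 60261 CPM in the double mutant, between 11236 and 24089 CPM in the Sep2 mutant, between 22581 and 42865 CPM in the Sep5 mutant and between 6735 and 20909 CPM in the control. Of 9 gut markers 6 rose and 2 fell, of 9 hemocyte markers 3 rose, of 5 oenocyte markers 3 rose (Cyp4g1, 1.96), of 7 testis markers 2 fell, of 2 tested adult markers 1 fell, and of 5 neuron markers 0 were called by limma. The counts for testis and neuron markers are near or under the shares over all genes. The part of tissue composition in the storage protein differences was not tested.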

How the data were processed

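RNA of whole larvae was measured in 14 libraries of 4 genotypes. The deposited table holds log2 CPM, which the authors scaled between libraries by TMM, per the labels' design text. The submitters' processing notes list STAR 2.7.11b, cutadapt 3.5, FastQC 0.11.9 and edgeR 3.40, with dm6 and BDGP6 as builds. The tool that counted reads per gene, and its use of strand, are not given in the sources used here. Taken back to the linear scale, 100% of 250166 values were whole reads within 0.01 reads, above a floor of -3.65 log2 CPM. Small counts are pulled towards that floor. The study's design text names quasi-likelihood tests; since the deposited values are on a log2 scale, limma 3.58.1 (R 4.3.3, intensity trend, robust moderation, 1 fit of all libraries by genotype) was the main test, over 12586 genes above 0 log2 CPM in at least 3 libraries. Adjusted p-values are Benjamini-Hochberg values over all genes tested, called under 0.05, and each one printed is from limma. Comparisons with the control share its libraries. Tables and figures were made with Python 3.11.15, pandas 2.3.3 and matplotlib 3.10.9.

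On simulated counts for the double mutant against the control (12367 genes, dispersion 0.05) the fit recovered 74 of 100 genes changed 2-fold and 98 of 100 changed 4-fold, with 11 false calls. These rates hold for that dispersion and that number of changed genes. In the data 45.0% of tested genes were called. The SD of the genes described here ran from 0.28 (Lsp1beta) to 1.17 log2 CPM (Fbp1) in the double mutant. In the control it ran from 0.46 (Lsp2) to 0.82 (Lsp1alpha). Other dispersions were not simulated, so the rates cannot be read as power for these genes. Nothing in the labels says that libraries of a genotype came from separate cultures, so p-values measure the spread between these libraries, which may be technical. It exceeded counting noise: chi-square values of replicate pairs, over their degrees of freedom, lay between 27.9 and 324. Same-numbered Sep2 mutant and control libraries deviated together (correlations 0.305, 0.452 and 0.166). No other pair of genotypes had every correlation over 0.1. No label says that a number marks a pair or a batch. The main fit used genotype only, and a replicate block was run as an alternative.

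The 6 genes and the 16 lists (165 genes, of which 162 matched) were chosen with earlier results of these data known. Of each list the 4 genes with the smallest adjusted p in a comparison could be named, with all of a list of 3, and the 3 genes nearest to each storage protein gene in pattern. Positions of 17790 of 17869 genes were taken from BDGP6, Ensembl release 115. Promoter and protein sequences were not used here, so the planned motif search and protein comparison were not made. Alternatives changed 1 choice at a time: the filter, log2(CPM + 1), quantile normalization, median centring, moderation, weights per library, voom on recovered reads, the replicate block, the libraries in the fit, and leaving out each library.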

Additional observations from a re-analysis of the deposited data

Results flagged for a closer look

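Lsp1alpha in the double mutant was picked out because 1 library stood far from the others: replicate 2 had 13.03 log2 CPM, against 11.57 to 11.68 in the other 3 libraries, and the gap between it and the next library was 0.924 of the whole range, above Dixon's 95% critical value for 4 libraries. The 12 groups of 4 libraries (6 genes in the double mutant and in the control) were examined in this way, and chance picks out about 1 group in 20. Without that library the log2 fold change of Lsp1alpha in the double mutant against the control was 0.93 (limma adjusted p = 0.0704), against 1.29 with it (adjusted p = 0.0211).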

How the results depend on the processing

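The 4 calls among the 6 genes in the double mutant against the control became 2 with no filter, 2 with sample weights, 2 with double mutant replicates 1 and 2 alone and 1 with quantile normalization, and ranged from 2 to 4 without 1 library (2 without double mutant replicate 2, control replicate 1 or control replicate 2). For the Sep2 mutant against the control, 0 became 1 with moderation without trend and robust shrinkage, 3 with sample weights and 1 with only the libraries compared, and 0 to 1 without 1 library (1 without double mutant replicate 2, Sep5 mutant replicate 3 or control replicate 3). For the Sep5 mutant against the control, 1 became 0 with no filter, the stricter filter, log2(CPM + 1), quantile normalization, sample weights, double mutant replicates 1 and 2 alone or only the libraries compared, 2 with median centring, and 0 to 3 without 1 library (3 without control replicate 3). For the double mutant against the Sep2 mutant, 2 became 1 with no filter, quantile normalization or double mutant replicates 1 and 2 alone, 3 with sample weights (Fbp2 added), and 1 to 2 without 1 library (1 without any of double mutant replicates 1, 2 and 3, Sep2 mutant replicates 1 and 2, Sep5 mutant replicate 2 and control replicates 2 and 4). The count was 0 to 1 in the double mutant against the Sep5 mutant without 1 library (1 without double mutant replicate 2). With sample weights 2 were called in the Sep2 mutant against the Sep5 mutant and 1 in the interaction, in place of 0. The share of reads in the Sep2 mutant was 4.60% without mitochondrial transcripts and ribosomal RNA, against 4.09% with them, a shift larger than its SD of 0.35. The double mutant moved further, from 3.15% to 4.05%, but within its SD of 0.96. The causes were not tested.

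Of the fold changes of the 6 genes, 932 values kept direction and side of the threshold under the alternatives, 47 lost a call, 17 gained one and 48 changed sign; none of those that changed sign passed the threshold. Against the control, Fbp2 became 0.0020 (sample weights) and 0.48 (double mutant replicates 1 and 2 alone) in the double mutant, Lsp2 became -0.048 (median centring) and -0.0026 (voom) in the Sep2 mutant, and Fbp2 became -0.21 (quantile) and -0.0024 (voom) in the Sep5 mutant. Lsp1alpha became -0.036 (quantile) in the double mutant against the Sep2 mutant. Against the Sep5 mutant, the double mutant had Lsp1beta at -0.14 (quantile) and -0.068 (sample weights), Lsp2 at -0.020 (quantile), and, with double mutant replicates 1 and 2 alone, Lsp1alpha at 0.076, Lsp1gamma at 0.019 and Fbp2 at 0.42. Sample weights gave -0.20 for Lsp1gamma and 0.094 for Lsp2 in the Sep2 mutant against the Sep5 mutant. In the interaction Lsp2 became -0.056 (quantile) and -0.079 (replicate block). Without 1 library, values against the control spanned -0.29 to 0.24 for Fbp2 in the double mutant, -0.17 to 0.20 for Lsp2 in the Sep2 mutant, and -0.11 to 0.28 for Lsp2 and -0.22 to 0.33 for Fbp2 in the Sep5 mutant. They spanned -0.16 to 0.33 for Lsp1alpha and -0.0029 to 0.42 for Lsp2 in the double mutant against the Sep2 mutant. They spanned -0.18 to 0.38 for Lsp1beta, -0.47 to 0.11 for Lsp1gamma, -0.090 to 0.34 for Lsp2 and -0.35 to 0.18 for Fbp2 in the double mutant against the Sep5 mutant. They spanned -0.22 to 0.11 for Lsp2 in the Sep2 mutant against the Sep5 mutant, and -0.53 to 0.032 for Lsp1beta and -0.094 to 0.33 for Lsp2 in the interaction.

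Over all genes, calls moved more than 1.5-fold with sample weights (4091, against 566 without them, in the Sep2 mutant against the control, 6807 against 3640 in the double mutant against the Sep2 mutant, 1844 against 306 in the Sep2 mutant against the Sep5 mutant, 2204 against 562 in the interaction), with only the libraries compared (316 against 646 in the Sep5 mutant against the control, 602 against 1121 in the double mutant against the Sep5 mutant, 169 in the Sep2 mutant against the Sep5 mutant) and with double mutant replicates 1 and 2 alone (1687, 384 and 192 in the double mutant against the Sep2 mutant, against the Sep5 mutant and in the interaction). Leaving out 1 library also moved these counts, and with them the background shares, by more than 1.5-fold. The Sep2 mutant against the control had between 302 and 349 calls without any of its 3 Sep2 mutant libraries or control replicates 1 and 2. The Sep5 mutant against the control had 1363 calls without Sep5 mutant replicate 2, and between 231 and 389 without Sep5 mutant replicates 1 and 3 or control replicates 1 and 4. The double mutant against the Sep2 mutant had 2099 and 2005 calls without Sep2 mutant replicates 1 and 2, and the double mutant against the Sep5 mutant had 392 without Sep5 mutant replicate 2. The Sep2 mutant against the Sep5 mutant had between 145 and 196 without any Sep2 mutant library or Sep5 mutant replicates 1 and 3. The interaction had between 217 and 310 without double mutant replicate 3, Sep2 mutant replicates 1 and 2, Sep5 mutant replicates 1 and 2 or control replicates 2 and 3. With the replicate block, calls over all genes were 5706 in the double mutant against the control, 528 in the Sep2 mutant against the control and 592 in the Sep5 mutant against the control, and the block changed no call among the 6 genes. No scaling moved the median of all genes by over 0.1. Alternatives for the gene lists were chosen after seeing the data. Without double mutant replicate 3, the library with the fewest reads, 4 of the 6 genes were still called in the double mutant against the control.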
